A study of Mus musculus with 12 samples.

Results

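The epidermal growth factor (EGF) receptor family and its ligands were followed here as 9 genes of 19477 with values in the deposited tables: the receptors Egfr, Erbb2 and Erbb3, and the ligands Tgfa, Hbegf, Areg, Ereg, Epgn and Btc. The genes were taken by name, and all 9 reached 1 FPKM (fragments scaled by gene length and library total) in every one of the 12 libraries. Transcripts were measured in dorsal epidermis of C57BL/6 mice that all carried floxed Vdr (vitamin D receptor) and Med1 (a Mediator subunit and coactivator) alleles. The double knockout (DKO) mice were K14 Cre+/-, with a recombinase expressed from the keratin 14 promoter of basal keratinocytes, and control mice were K14 Cre-/-. There were 3 DKO and 3 control libraries from mice aged 6 months, and 3 DKO and 3 control libraries from mice at postnatal day 36 (P36). The series asks how loss of both proteins in keratinocytes changes epidermal gene expression, and since the labels do not say that libraries of a group came from separate animals, the spread that p-values measure may be technical.

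The receptors of this family are membrane tyrosine kinases that act in pairs. Egfr binds all 6 of the ligands followed here, Erbb2 has no known ligand of its own and serves as the favoured partner of the others, and Erbb3 binds neuregulins and has little kinase activity. The ligands are made as membrane-anchored precursors and are cut free by metalloproteases such as Adam17, so that keratinocytes stimulate themselves and their neighbours. In mouse skin the pathway is known for its part in keratinocyte proliferation, wound closure and hair follicle architecture. Mice that lack Tgfa, or that carry a weakened Egfr, have wavy hair.

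Epgn, Ereg, Areg and Btc lie next to each other, in that order, on chromosome 5, with no other protein-coding gene between them in the RefSeq annotation of GRCm38.p6. At 6 months Btc fell in the libraries labelled DKO, while the other 3 were not called with all 6 libraries and depended on 1 control library. The promoters of 3 of these neighbours are shown because much of what follows concerns their levels. RefSeq promoter windows (GRCm38.p6, 250 bases before to 50 bases after the start of the gene) were matched for 6 of the 9 members. The Areg window lies at chr5:91139349-91139648 on the plus strand, that of Epgn at chr5:91027267-91027566 on the plus strand and that of Btc at chr5:91402945-91403244 on the minus strand. Capitals mark TGACG or its complement CGTCA, the short core of the cyclic AMP response element.
Areg: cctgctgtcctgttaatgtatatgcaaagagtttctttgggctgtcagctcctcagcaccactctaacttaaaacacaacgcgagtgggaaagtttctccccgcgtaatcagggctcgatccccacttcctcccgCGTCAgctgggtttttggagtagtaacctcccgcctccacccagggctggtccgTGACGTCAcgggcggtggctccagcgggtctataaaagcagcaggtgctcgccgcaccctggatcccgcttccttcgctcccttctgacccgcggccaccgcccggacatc
Epgn: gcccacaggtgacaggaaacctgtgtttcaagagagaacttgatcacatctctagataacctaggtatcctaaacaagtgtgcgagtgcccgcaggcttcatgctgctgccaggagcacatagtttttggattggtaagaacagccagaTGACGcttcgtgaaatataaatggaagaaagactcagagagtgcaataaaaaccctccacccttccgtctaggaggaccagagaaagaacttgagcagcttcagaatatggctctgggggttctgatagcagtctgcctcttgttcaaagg
Btc: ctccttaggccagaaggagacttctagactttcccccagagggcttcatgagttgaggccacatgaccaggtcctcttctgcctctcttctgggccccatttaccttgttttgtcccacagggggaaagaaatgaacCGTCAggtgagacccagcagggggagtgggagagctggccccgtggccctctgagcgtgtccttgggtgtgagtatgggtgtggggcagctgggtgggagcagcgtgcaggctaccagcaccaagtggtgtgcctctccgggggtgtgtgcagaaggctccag
The whole element TGACGTCA stood once in the Areg window, with its first base at position -61 from the start, and was found in none of the other 5 windows. Of 32851 mouse promoter windows of the same length, 588 (1.79%) held it on either strand. The core TGACG was matched 3 times in the Areg window, of which the pair at -61 and -58 overlap within the whole element and the third starts at -115. Epgn held 1 match at -101, Btc 1 at -113 and Erbb2 1 at -171, while the windows of Egfr and Tgfa held none, against 20.8% of all windows with at least 1. The AP-1 motif TGANTCA was found in none of the 6 windows, against 7.81% of all windows, searched on both strands.

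The labels were checked against the targeted genes. Med1 averaged 9.11 ± 1.11 FPKM in libraries labelled DKO and 13.8 ± 0.504 FPKM in control at P36 (SD, n = 3 each; log2 fold change -0.55, limma adjusted p = 0.0083). At 6 months it averaged 11.6 ± 0.256 FPKM in libraries labelled DKO and 14.2 ± 2.21 FPKM in control (log2 fold change -0.26, limma adjusted p = 0.13). Vdr goes against the label: it averaged 48.1 ± 5.49 FPKM in libraries labelled DKO and 40.5 ± 11.6 FPKM in control at 6 months, and 83.5 ± 6.06 FPKM in libraries labelled DKO and 68.0 ± 4.16 FPKM in control at P36. Without control 6-month replicate 1, Vdr was called higher in libraries labelled DKO at that age (0.49, limma adjusted p = 0.031). The groups are therefore called the libraries labelled DKO, and each direction given here is a direction between labels. FPKM is computed over a whole gene and would not reveal the loss of a floxed segment. Skin markers were present in all groups, with summed basal keratinocyte markers between 2709 and 6411 FPKM, and FPKM columns summed to 446617 to 554382 with read depth unknown. Control 6-month replicate 1 stood apart from the other 2 controls of its age: 143 of 12594 genes were at least 1 log2 unit above both and 83 as far below both. In DKO 6-month replicate 3 the count above was larger, 258, and in the other 10 libraries it was 4 to 58. Results at 6 months that turn on control replicate 1 are also given without it.

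**Figure D1:**
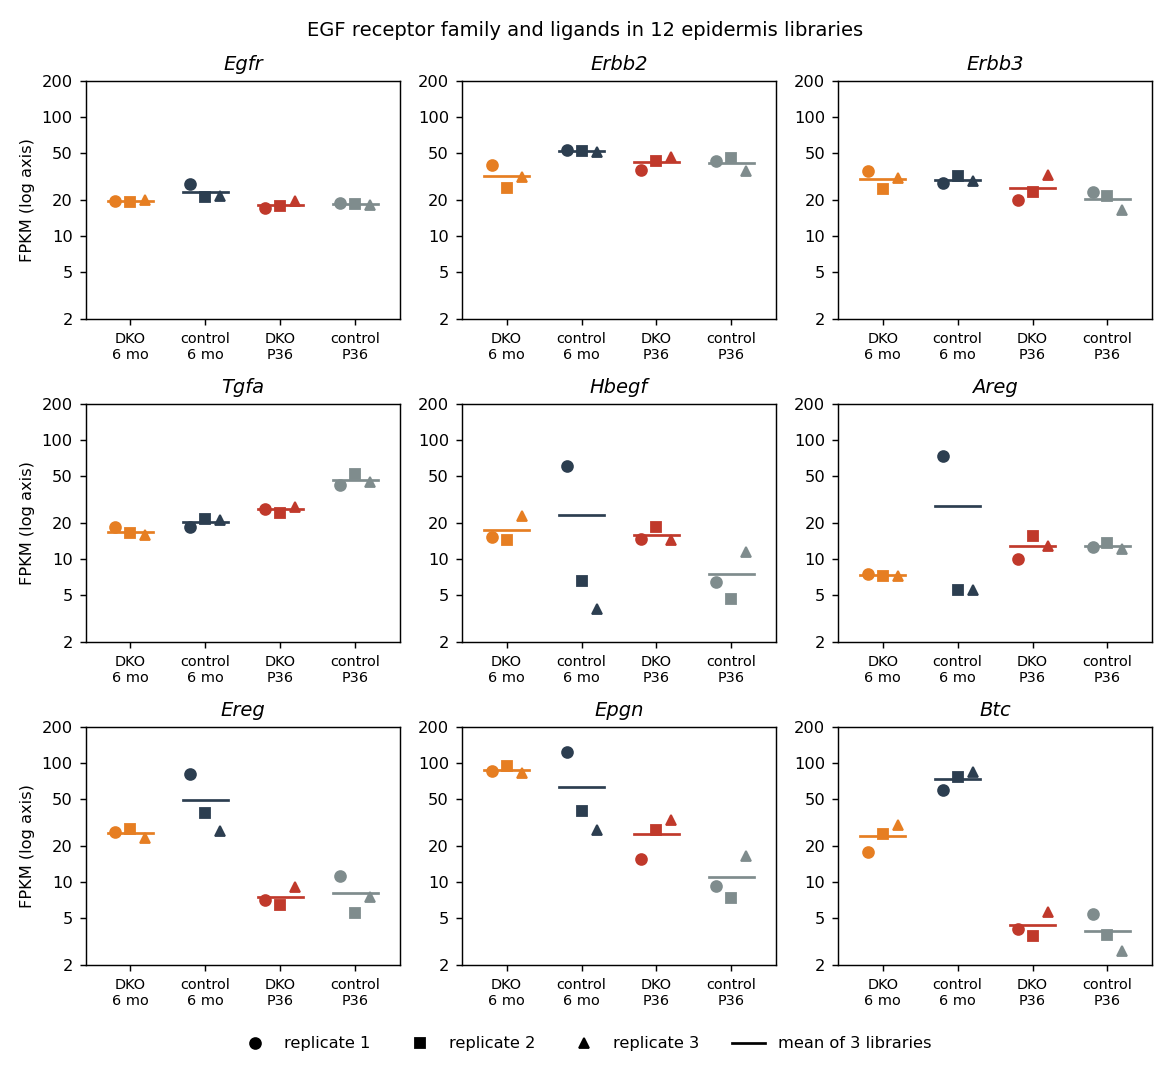
Level of each member in FPKM (vertical axes, logarithmic) in the 12 libraries, by group; symbols are libraries, with a shape for each replicate number, and horizontal lines the group means. Btc and Erbb2 lay lower in all 3 libraries labelled DKO than in all 3 controls at 6 months, Tgfa did so at both ages, and 1 control library at 6 months held Areg at 72.8 FPKM against 5.47 and 5.52 FPKM in the other 2.

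At 6 months, 2 members fell in the libraries labelled DKO: the ligand Btc and the receptor Erbb2. No member was called higher with all 6 libraries, and 7 were not called at an adjusted p of 0.05. Over all genes tested, 41.3% were called, 23.2% higher and 18.2% lower. The median log2 fold change of the 9 members was -0.27, against 0.04 over all genes. That median includes Areg, Hbegf, Epgn and Ereg, whose values turned on control replicate 1, as given below. Without that library the median over all genes was 0.03. In bulk tissue, fewer cells of a type and less RNA per cell cannot be told apart.

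Among the receptors at 6 months, Erbb2 was the one that changed. It stood at 39.5, 25.3 and 31.1 FPKM in the libraries labelled DKO, against 52.9, 51.9 and 50.8 FPKM in control. The controls were nearly equal, the libraries labelled DKO varied more, and the groups did not overlap. The log2 fold change on the log2(FPKM + 1) scale was -0.70 (SE 0.16, 95% interval -1.07 to -0.34, limma adjusted p = 0.0108). The call held under all 14 alternatives, including without control replicate 1 (-0.69, limma adjusted p = 0.0295).

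Egfr, the receptor that all 6 ligands share, stood at 19.9, 19.2 and 20.2 FPKM in the libraries labelled DKO and at 27.4, 21.2 and 21.7 FPKM in control at 6 months. All 3 libraries labelled DKO were lower than all 3 controls, but the difference was small and did not pass (log2 fold change -0.23, SE 0.12, limma adjusted p = 0.163). The difference was -0.11 without control replicate 1, the highest control (limma adjusted p = 0.327), and passed only when keratin and cornified envelope genes were left out of the library totals (-0.42, limma adjusted p = 0.0357). Erbb3 stood at 35.1, 24.9 and 30.4 FPKM in the libraries labelled DKO and at 27.6, 31.9 and 29.1 FPKM in control. These ranges overlapped, and the log2 fold change was 0.02 with a 95% interval of -0.30 to 0.34 (limma adjusted p = 0.923). Its sign was negative under the 3 rescalings of the libraries.

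Btc, betacellulin, showed the largest called difference of the 9 members at 6 months. It stood at 17.7, 25.3 and 30.2 FPKM in the libraries labelled DKO, against 59.3, 76.3 and 84.3 FPKM in control. Even the lowest control was well above the highest library labelled DKO. The log2 fold change was -1.57 (SE 0.21, 95% interval -2.06 to -1.07, limma adjusted p = 0.0017). Over the 14 alternatives it lay between -1.76 and -1.36 and stayed called. The markers of the hair follicle bulge moved with it: 5 of 6 were called lower, with summed levels of 187 to 228 FPKM in the libraries labelled DKO and 1760 to 1860 FPKM in control, and none was at 0. Summed Langerhans cell, T cell, and endothelial and smooth muscle markers were also apart and lower in the libraries labelled DKO. Single markers of these lists went both ways (means, DKO against control). Cd3d (3.17 against 2.40 FPKM), Cd3g (33.7 against 27.1 FPKM), Epcam (183 against 117 FPKM) and Pecam1 (13.1 against 12.5 FPKM) were higher. The other markers with values were lower, among them Thy1 (52.2 against 80.3 FPKM) and Acta2 (20.1 against 84.1 FPKM). Wound keratin, sebaceous gland, and macrophage, neutrophil and mast cell sums were apart and higher. In the last list S100a8 (mean 143 FPKM, control 6.71 FPKM) and S100a9 (174 FPKM, control 11.3 FPKM) were higher. Csf1r went the other way, at 8.10, 7.47 and 14.3 FPKM in the libraries labelled DKO and 14.7, 16.1 and 16.8 FPKM in control. Cd68, Adgre1, Itgam, Cma1 and Mcpt4 overlapped between the groups. Of the 6 basal keratinocyte markers 4 were also called lower, with sums of 3693 to 4452 FPKM in the libraries labelled DKO and 4539 to 6162 FPKM in control, and none was at 0. Krt14, of the same list, went the other way. It stood at 2676, 2385 and 2767 FPKM in the libraries labelled DKO and at 1423, 2345 and 1943 FPKM in control. The part of all these markers in the result was not tested.

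Tgfa, the transforming growth factor alpha gene, stood at 18.6, 16.4 and 15.8 FPKM in the libraries labelled DKO and at 18.6, 21.8 and 21.4 FPKM in control at 6 months. Replicate 1 of each genotype was nearly equal (18.55 and 18.56 FPKM), so the groups only just failed to overlap. With all 6 libraries the log2 fold change was -0.27 (SE 0.11, limma adjusted p = 0.0858). It was called lower without control replicate 1 (-0.34, limma adjusted p = 0.0447), with all libraries scaled to 1 total (-0.43, limma adjusted p = 0.0172) and with keratin and cornified envelope genes left out of the totals (-0.46, limma adjusted p = 0.0137). Btc, Erbb2, Egfr and Tgfa were thus the 4 members with all libraries labelled DKO below all controls, and no member had them all above. Over all genes tested, groups did not overlap in 24.0% with the libraries labelled DKO lower and in 31.8% with them higher.

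The values of the other 4 ligands in control at 6 months turned on replicate 1. Areg, amphiregulin, stood at 7.44, 7.15 and 7.23 FPKM in the libraries labelled DKO and at 72.8, 5.52 and 5.47 FPKM in control. Hbegf, the heparin-binding EGF-like growth factor, stood at 15.2, 14.5 and 23.0 FPKM in the libraries labelled DKO and at 59.7, 6.55 and 3.78 FPKM in control. In both genes, control replicate 1 was above every other library of the series, and the other 2 controls were below all 3 libraries labelled DKO.
Epgn, epigen, stood at 85.1, 94.1 and 81.5 FPKM in the libraries labelled DKO and at 122, 39.4 and 27.0 FPKM in control, with the same arrangement. Ereg, epiregulin, stood at 26.0, 27.8 and 23.2 FPKM in the libraries labelled DKO and at 81.0, 38.1 and 26.5 FPKM in control. Here the lowest control lay within the range of the libraries labelled DKO and the other 2 lay above it. Control replicate 1 exceeded the next control 13.2-fold for Areg, 9.12-fold for Hbegf, 3.09-fold for Epgn and 2.13-fold for Ereg. Ranked by that excess on the log2(FPKM + 1) scale among 12594 genes, Areg was at place 7 and Hbegf at place 12, and the first 3 places were held by the immediate early genes Atf3, Nr4a1 and Fosb.

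With all 6 libraries none of these 4 ligands was called at 6 months. The log2 fold changes were -0.82 for Areg (SE 0.87, limma adjusted p = 0.482), 0.49 for Hbegf (SE 0.86, limma adjusted p = 0.674), 0.76 for Epgn (SE 0.49, limma adjusted p = 0.245) and -0.74 for Ereg (SE 0.36, limma adjusted p = 0.136). Without control replicate 1, Epgn was higher in the libraries labelled DKO (1.38, SE 0.17, limma adjusted p = 0.00318), and so was Hbegf (1.60, SE 0.27, limma adjusted p = 0.00734). Areg changed sign and was called higher (0.35, SE 0.10, limma adjusted p = 0.0357). Ereg remained below the threshold with a smaller difference (-0.30, limma adjusted p = 0.202), and it was called lower only without control replicate 3 (-1.09, limma adjusted p = 0.0363). Without replicate 1, 6 of the 9 members were called in all, 3 higher and 3 lower, while 38.4% of the 12330 genes then tested were called, 21.5% higher and 16.9% lower. The 2 controls then left were 2 libraries, and the fit rests on them for the spread of the group. The authors' deposited table gives a log2 ratio of -1.90 for Areg at 6 months with a q-value of 2.73e-154, and -0.37 for Hbegf with a q-value of 1.99e-18. Both ratios in the authors' deposited table have the sign opposite to that seen here in the 2 remaining controls.

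**Figure D2:**
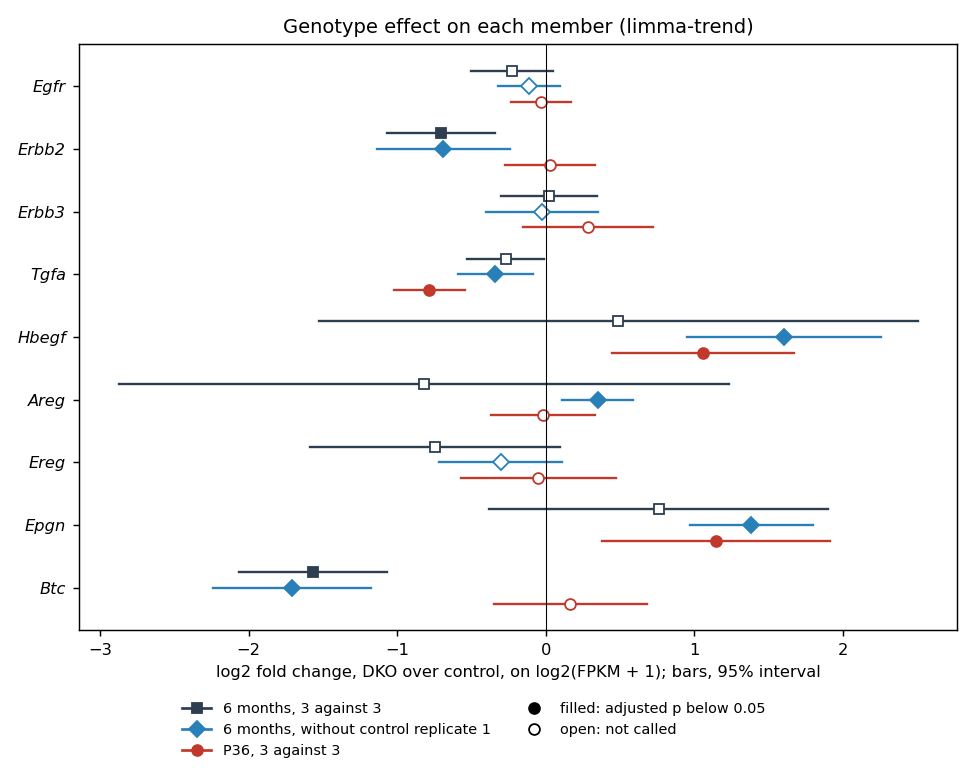
Log2 fold change of DKO over control for each member (horizontal axis, log2(FPKM + 1) scale) with its 95% interval; squares are 6 months with 6 libraries, diamonds 6 months without control replicate 1, circles P36, and filled symbols passed an adjusted p of 0.05. Areg has an interval from -2.87 to 1.23 at 6 months with all libraries and a log2 fold change of 0.35 without control replicate 1, while Btc and Erbb2 stay in place.

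At P36, 3 members changed in the libraries labelled DKO: Tgfa fell, and Hbegf and Epgn rose. The other 6 were not called. Over all genes tested, 23.3% were called, 18.0% higher and 5.32% lower. The median log2 fold change of the members was 0.03, against 0.09 over all genes.

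Tgfa was the most firmly changed member at P36. It stood at 26.4, 24.5 and 27.5 FPKM in the libraries labelled DKO, against 41.5, 51.4 and 44.4 FPKM in control. Every library labelled DKO was well below every control. The log2 fold change was -0.78 (SE 0.10, 95% interval -1.02 to -0.54, limma adjusted p = 0.0018), and the call held under all 14 alternatives. The markers of the hair matrix and inner root sheath moved with Tgfa: 10 of 10 were called lower, with summed levels of 10075 to 13596 FPKM in the libraries labelled DKO and 23821 to 29250 FPKM in control, and none was at 0. Melanocyte sums were also apart and lower (191 to 355 FPKM in the libraries labelled DKO, 375 to 686 FPKM in control). Of that list Dct, Pmel and Mlana were called lower. Bulge sums were lower too (199 to 246 FPKM in the libraries labelled DKO, 277 to 505 FPKM in control). There Krt15, Lhx2 and Fgf18 were called lower and Cd34 higher. The part of all these markers in the result was not tested.

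Hbegf stood at 14.7, 18.5 and 14.4 FPKM in the libraries labelled DKO at P36, against 6.38, 4.63 and 11.5 FPKM in control. The groups did not overlap, with control replicate 3 nearest to the libraries labelled DKO. The log2 fold change was 1.06 (SE 0.27, 95% interval 0.44 to 1.67, limma adjusted p = 0.0236). The call was lost, with the same direction, without control replicate 1 or 2 or any 1 of the 3 libraries labelled DKO (limma adjusted p 0.0513 to 0.0905), with median-ratio scaling (limma adjusted p = 0.0514) and in a fit of all 12 libraries together (limma adjusted p = 0.345).

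Epgn stood at 15.4, 27.2 and 33.4 FPKM in the libraries labelled DKO at P36, against 9.18, 7.27 and 16.6 FPKM in control. Replicate 3 of the controls lay above replicate 1 of the libraries labelled DKO, so the groups overlapped. The log2 fold change was 1.14 (SE 0.33, 95% interval 0.38 to 1.91, limma adjusted p = 0.0412). The call was lost, with the same direction, without control replicate 1 or 2 or DKO replicate 2 or 3 (limma adjusted p 0.116 to 0.138), with no filter on low values (limma adjusted p = 0.0757), with median-ratio scaling (limma adjusted p = 0.0796) and in the joint fit (limma adjusted p = 0.111). Markers of other cells also moved at P36: 6 of 6 skeletal muscle markers were called higher, with sums of 101 to 426 FPKM in the libraries labelled DKO and 11.6 to 21.4 FPKM in control. Of 8 macrophage, neutrophil and mast cell markers 6 were called higher, with sums of 180 to 255 FPKM in the libraries labelled DKO and 45.5 to 116 FPKM in control, and no marker of either list was at 0. Of 6 suprabasal keratinocyte markers 4 were called higher, with sums of 5777 to 7714 FPKM in the libraries labelled DKO and 1831 to 2588 FPKM in control. Summed T cell, Langerhans cell, sebaceous gland, and endothelial and smooth muscle markers were also apart and higher in the libraries labelled DKO, with 3 of 4, 3 of 5, 4 of 6 and 4 of 6 markers called higher. Adipocyte and wound keratin sums overlapped. Still, Adipoq (2.63), Plin1 (2.39), Cfd (3.71) and Cidec (2.40) of the former were called higher, and Fabp4 was not. Of the wound keratins, Krt6b (4.50) and Krt16 (2.35) were called higher, and Krt6a and Krt17 were not. Basal keratinocyte and fibroblast sums overlapped as well. In the basal list Itga6 (1.13), Itgb4 (0.57) and Krt14 (0.95) were called higher, and Krt5, Col17a1 and Trp63 were not. In the fibroblast list Pdgfra (1.15) and Lum (1.28) were called higher, and Col1a1, Col1a2, Col3a1 and Dcn were not. The part of all these markers in the higher Hbegf and Epgn values was not tested.

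The receptors and the remaining ligands overlapped between the genotypes at P36. Egfr stood at 17.1, 17.8 and 19.5 FPKM in the libraries labelled DKO and at 18.8, 18.5 and 18.4 FPKM in control (log2 fold change -0.03, 95% interval -0.23 to 0.17). Erbb2 stood at 35.9, 42.8 and 46.2 FPKM in the libraries labelled DKO and at 42.3, 45.3 and 34.8 FPKM in control (0.03, 95% interval -0.27 to 0.33). In both receptors the ranges of the 2 genotypes overlapped.
Erbb3 stood at 20.2, 23.5 and 32.6 FPKM in the libraries labelled DKO and at 23.4, 21.8 and 16.5 FPKM in control (0.28, limma adjusted p = 0.344). Areg ranged from 9.94 to 15.5 FPKM in the libraries labelled DKO and from 12.03 to 13.63 FPKM in control. Ereg ranged from 6.45 to 8.98 FPKM in the libraries labelled DKO and from 5.46 to 11.1 FPKM in control. The lowest member was Btc, with 3.54 to 5.59 FPKM in the libraries labelled DKO and 2.65 to 5.35 FPKM in control. Only Hbegf, with the libraries labelled DKO higher, and Tgfa, with them lower, had groups apart at P36, against 30.0% and 9.63% of all genes tested in those directions.

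The difference between the genotype effects at the 2 ages (6 months minus P36) was tested for each member in 1 fit of all 12 libraries, over 13280 genes. It was called for Btc, Erbb2 and Tgfa, 1 higher and 2 lower, with 34.9% of all genes called, 13.8% higher and 21.1% lower. For Btc, which fell at 6 months and was near control at P36, the difference was -1.73 (SE 0.34, limma adjusted p = 0.0028), and it held under all 19 alternatives. For Erbb2 it was -0.73 (SE 0.22, limma adjusted p = 0.0217), and it was lost without control P36 replicate 3 (limma adjusted p = 0.0529), without DKO P36 replicate 3 (limma adjusted p = 0.0558) and with median-ratio scaling (limma adjusted p = 0.0558). For Tgfa, lower at both ages but by more at P36, it was 0.51 (SE 0.15, limma adjusted p = 0.0208). That call was lost without DKO P36 replicate 2 (limma adjusted p = 0.0503), without DKO 6-month replicate 1 (limma adjusted p = 0.0505), with the replicate number as a block (limma adjusted p = 0.0623) and with 2 of the 3 rescalings. For Hbegf and Epgn the difference was not called (-0.57 and -0.38), and its 95% intervals ran from -2.76 to 1.62 and from -1.83 to 1.06.

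Between the ages the set of ligand transcripts changed in both genotypes. Btc, Ereg and Epgn rose at 6 months and Tgfa fell. Each age was deposited as its own table, so age and table cannot be told apart. In the libraries labelled DKO, 3 members were higher and 2 lower at 6 months than at P36, with 60.0% of all genes called, 28.0% higher and 32.0% lower. In control, 5 were higher and 1 lower, with 63.1% of all genes called, 35.3% higher and 27.9% lower.

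Btc moved most with age. In the libraries labelled DKO it averaged 24.4 ± 6.30 FPKM at 6 months and 4.38 ± 1.07 FPKM at P36 (SD, n = 3 each; log2 fold change 2.22, SE 0.24, limma adjusted p = 1.81e-05). In control it averaged 73.3 ± 12.8 FPKM at 6 months and 3.87 ± 1.37 FPKM at P36 (3.95, SE 0.24, limma adjusted p = 9.94e-08). The ages did not overlap in either genotype.
Ereg averaged 25.7 ± 2.34 FPKM at 6 months and 7.49 ± 1.32 FPKM at P36 in the libraries labelled DKO (1.66, SE 0.33, limma adjusted p = 0.00124). In control its log2 fold change was 2.35 (SE 0.33, limma adjusted p = 7.54e-05), and 1.91 without control 6-month replicate 1. The ages were apart in both genotypes. Epgn averaged 86.9 ± 6.49 FPKM at 6 months and 25.3 ± 9.12 FPKM at P36 in the libraries labelled DKO (1.80, SE 0.47, limma adjusted p = 0.00595). In control the log2 fold change was 2.19 (SE 0.47, limma adjusted p = 0.00156), and 1.56 without control 6-month replicate 1 (limma adjusted p = 0.00239). Suprabasal keratinocyte markers rose with age too: in the libraries labelled DKO 4 of 6 were called higher, with sums of 11085 to 14284 FPKM at 6 months and 5777 to 7714 FPKM at P36. In control 6 of 6 were called higher, with sums of 12346 to 17310 FPKM at 6 months and 1831 to 2588 FPKM at P36. Bulge markers summed to 1760 to 1860 FPKM at 6 months and 277 to 505 FPKM at P36 in control, with 4 of 6 called higher, while in the libraries labelled DKO 0 of 6 were called higher and 3 lower. The part of these markers in the results was not tested.

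Tgfa went the other way. In the libraries labelled DKO it averaged 16.9 ± 1.47 FPKM at 6 months and 26.1 ± 1.52 FPKM at P36 (-0.60 on the log2 scale, SE 0.11, limma adjusted p = 0.00051). In control it averaged 20.6 ± 1.78 FPKM at 6 months and 45.8 ± 5.09 FPKM at P36 (-1.11, SE 0.11, limma adjusted p = 3.29e-06). Hair matrix and inner root sheath markers summed to 21.7 to 40.5 FPKM in the libraries labelled DKO and 38.8 to 50.9 FPKM in control at 6 months, far below their P36 levels given above. One of those 10 markers, the inner root sheath keratin Krt72, was at 0 in all 3 controls at 6 months, and the part of these markers in the result was not tested.

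The receptors moved less with age. Erbb2 was called lower at 6 months in the libraries labelled DKO (-0.39, limma adjusted p = 0.046), but that call was lost in 13 of 19 alternatives. Among them was the omission of any 1 of control P36 replicate 1, DKO P36 replicates 2 and 3, the 3 controls of 6 months, and DKO 6-month replicates 2 and 3 (limma adjusted p 0.0528 to 0.194). In control, Egfr was called higher at 6 months (0.31, limma adjusted p = 0.017), a call lost without control 6-month replicate 1 (limma adjusted p = 0.058) and with median-ratio scaling (limma adjusted p = 0.164). Erbb3 was also called higher in control (0.52, limma adjusted p = 0.026), lost without control P36 replicate 3 or control 6-month replicate 2 or 3 (limma adjusted p 0.0531 to 0.111) and with median-ratio scaling (limma adjusted p = 0.0705).
Areg was not called with age in either genotype with all libraries. Without control 6-month replicate 1 it was called lower at 6 months in the libraries labelled DKO (-0.72, limma adjusted p = 0.000862), where its levels are the same but the pooled spread is smaller, and in control (-1.08, limma adjusted p = 0.000103). In the libraries labelled DKO its ages did not overlap. Ages were apart in 5 members in the libraries labelled DKO, 3 higher and 2 lower at 6 months, against 31.2% and 34.7% of all genes. In control they were apart in 6 members that were higher and 1 that was lower, against 38.7% and 30.3%.

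The order of the levels, which FPKM allows since it is per length, differed between the groups. At 6 months in the libraries labelled DKO, Epgn was highest and its range lay apart from that of Erbb2 below it, Areg was lowest and apart from Tgfa above it, and the neighbours in between, from Erbb2 through Erbb3, Ereg, Btc, Egfr and Hbegf to Tgfa, overlapped. In control at 6 months the order ran Btc, Epgn, Erbb2, Ereg, Erbb3, Areg, Egfr, Hbegf and Tgfa, and every pair of neighbours overlapped. The places of Areg and Hbegf there come from replicate 1, since in the other 2 controls both were below all other members. At P36 in the libraries labelled DKO the order was Erbb2, Tgfa, Erbb3, Epgn, Egfr, Hbegf, Areg, Ereg and Btc. There Erbb2 lay apart from Tgfa, Areg from Ereg and Ereg from Btc, and the rest overlapped. In control at P36 the order was Tgfa, Erbb2, Erbb3, Egfr, Areg, Epgn, Ereg, Hbegf and Btc, with Erbb2 apart from Erbb3 and Egfr apart from Areg.

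Summed over the 6 ligands, the level was 179 ± 7.88 FPKM in the libraries labelled DKO and 256 ± 136 FPKM in control at 6 months (SD, n = 3 each). The controls were 413 FPKM in replicate 1 and 188 and 168 FPKM in the other 2, which bracket the libraries labelled DKO. The sum was 91.9 ± 13.0 FPKM in the libraries labelled DKO and 89.0 ± 4.93 FPKM in control at P36. Within the sum the shares differed between the genotypes. Epgn made up 48.7% ± 3.12 of the ligand sum in the libraries labelled DKO and 22.2% ± 6.81 in control at 6 months, and these shares did not overlap. Btc made up 10.4% to 16.7% in the libraries labelled DKO and 14.3% to 50.0% in control, with control replicate 1 at the low end. At P36, Tgfa made up 28.8% ± 4.57 in the libraries labelled DKO and 51.6% ± 7.10 in control, without overlap. These shares restate the levels above and were not tested.

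**Figure D3:**
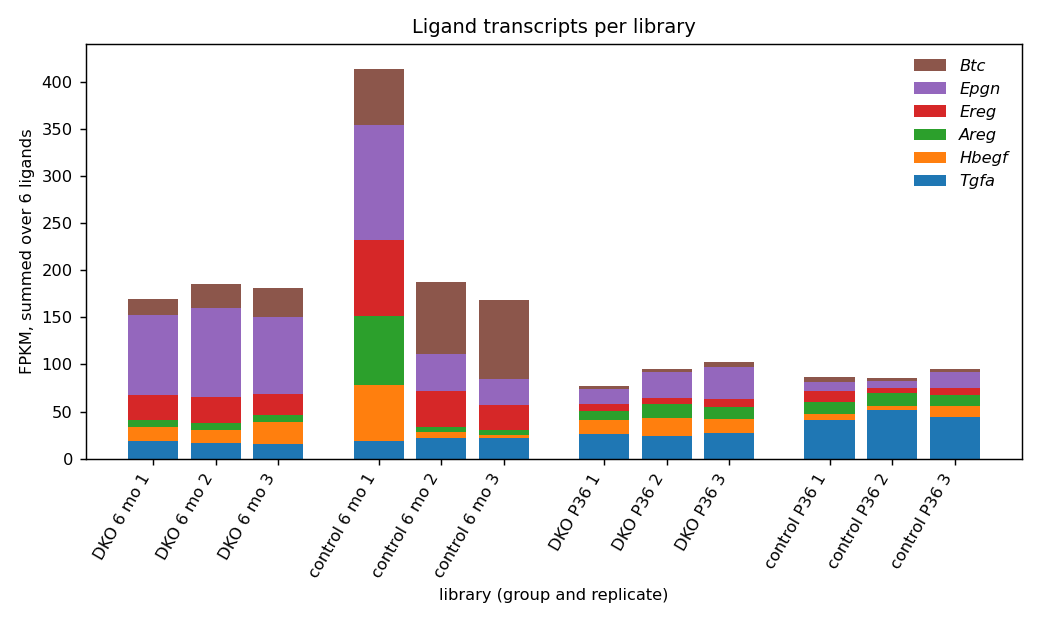
FPKM summed over the 6 ligands in each of the 12 libraries (vertical axis), with each ligand as a coloured segment. The sums lie between 77.4 and 103 FPKM at P36 and between 168 and 188 FPKM at 6 months, except 413 FPKM in control 6-month replicate 1. Tgfa is the largest segment in control at P36 and Epgn the largest in the libraries labelled DKO at 6 months.

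The rest of the family ranged from genes near 0 to Nrg4, at 17.4 ± 4.11 FPKM in the libraries labelled DKO at 6 months. Erbb4, the remaining receptor, reached at most 0.03 FPKM in any library, Egf itself at most 0.52 FPKM and Nrg3 at most 0.05 FPKM. Of the neuregulins, which bind Erbb3, Erbb4 or both, 3 passed the filter on low values at each age. At 6 months 23.2% of all genes tested were called higher and 18.2% lower, and at P36 18.0% and 5.32%. Nrg4 stood at 19.9, 19.5 and 12.6 FPKM in the libraries labelled DKO and at 6.60, 3.84 and 6.70 FPKM in control at 6 months (log2 fold change 1.46, limma adjusted p = 0.00348), and it was also higher at P36 (0.96, limma adjusted p = 0.00973). Its groups did not overlap at 6 months. Nrg1 was called higher at 6 months at low levels of 1.03 to 2.80 FPKM in the libraries labelled DKO and 0.14 to 0.40 FPKM in control (1.09, limma adjusted p = 0.0116). Without any 1 of the 3 libraries labelled DKO only 1 neuregulin was called at 6 months.

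The shedding genes release ligands from the membrane. At 6 months 6 were tested, with a median log2 fold change of -0.21. Of these, 1 was called higher and 2 lower, against 23.2% and 18.2% of all genes. The 2 lower ones were the inactive rhomboids Rhbdf1 and Rhbdf2, which carry Adam17 to the cell surface. Rhbdf1 stood at 30.6, 23.5 and 29.6 FPKM in the libraries labelled DKO, against 51.5, 65.5 and 61.4 FPKM in control (-1.07, limma adjusted p = 0.00153). Rhbdf2 stood at 32.2, 23.9 and 29.1 FPKM in the libraries labelled DKO, against 55.4, 41.6 and 44.5 FPKM in control (-0.71, limma adjusted p = 0.00927). Both were lower in every library labelled DKO than in every control. The metalloprotease Adam10 was called higher (0.41, limma adjusted p = 0.0119), but not without control replicate 2.
At P36, 7 were tested, with a median of 0.29, and 3 were called higher, against 18.0% of all genes. Adam17, the main protease for Tgfa, Hbegf, Areg, Ereg and Epgn, stood at 19.1, 20.1 and 20.9 FPKM in the libraries labelled DKO, against 11.7, 11.6 and 10.6 FPKM in control (0.77, limma adjusted p = 0.00116). Adam15 (0.51) and the low-level Adam12 (1.25) were the others. For Adam17 and both rhomboids the genotype effect differed between the ages (6 months minus P36, -0.56, -1.36 and -0.67, limma adjusted p = 0.0118, 0.00028 and 0.0156).

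Feedback inhibitors of the pathway, 17 genes, went both ways at 6 months, with a median of -0.07. Of them 2 were called higher and 4 lower, against 23.2% and 18.2% of all genes. Without control replicate 1 the count was 4 higher and 4 lower, and without DKO replicate 2 only 2 were called lower. Spry1, a Sprouty inhibitor of receptor signalling, stood at 18.5, 13.5 and 20.5 FPKM in the libraries labelled DKO, against 142, 53.2 and 71.1 FPKM in control (-2.17, limma adjusted p = 0.00295). Spred2 (-0.75), Spry2 (-0.74) and Socs3 (-1.24) were also called lower, and Socs5 (1.27) and Dusp4 (1.19) higher. Errfi1, which binds Egfr and blocks its kinase, was not called, with 40.0 to 47.6 FPKM in the libraries labelled DKO and 285, 40.2 and 81.5 FPKM in control. It was thus another gene whose control mean rested on replicate 1.
At P36, 3 of the 17 were called higher and 1 lower, against 18.0% and 5.32% of all genes, with a median of 0.29. Socs3, the inhibitor of Stat3 signalling, stood at 25.8, 24.7 and 27.6 FPKM in the libraries labelled DKO, against 9.94, 8.94 and 8.58 FPKM in control (1.41, limma adjusted p = 0.00023). Its genotype effect had the opposite sign at 6 months, and the difference between the ages was -2.65 (limma adjusted p = 0.00029). Socs5 (0.43) and Dusp6 (0.67) were also higher, and Dusp5 (-0.53) was lower. Dusp5 was not called without control replicate 1 or 2 or DKO replicate 2, and Dusp6 was not called without DKO replicate 2 (0.53, limma adjusted p = 0.057).

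Of 23 signal relay genes, the adaptors and kinases that pass the receptor signal inward, 2 were called higher and 5 lower at 6 months. The list median was -0.15, and of all genes 23.2% were called higher and 18.2% lower. The kinase Map2k1 (0.59, limma adjusted p = 0.00295) was among the higher ones, and only 1 gene was called higher without control replicate 2 or 3 or DKO replicate 2 or 3. The adaptors Grb2 (-0.59) and Gab1 (-0.52), Pik3cb (-0.35) and Akt1 (-0.46) were among the lower ones. Akt1 was not called without control replicate 1 (limma adjusted p = 0.0605), and Pik3cb was not called without DKO replicate 3 (limma adjusted p = 0.0673). That count was 2 or 3 without control replicate 2 or 3 or DKO replicate 1 or 2, and 8 with 2 of the 3 rescalings. At P36, 3 were called higher, Stat3, Map2k1 and Shc1, and 0 lower, against 18.0% and 5.32% of all genes, with a median of 0.12. Shc1 was not called without DKO replicate 2 (0.32, limma adjusted p = 0.0773), and 1 relay gene was called lower without control replicate 3 or DKO replicate 1. Stat3, a transcription factor that Egfr and cytokine receptors activate, stood at 45.8, 63.8 and 59.6 FPKM in the libraries labelled DKO, against 23.0, 21.0 and 22.9 FPKM in control (1.29, limma adjusted p = 0.00072).

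Growth factor response genes, which receptor signalling switches on, were mostly lower or not called at 6 months, with a median of -0.49. Of 16, 2 were called higher and 7 lower, against 23.2% and 18.2% of all genes. Fos stood at 33.5, 30.4 and 24.9 FPKM in the libraries labelled DKO, against 737, 193 and 304 FPKM in control (-3.53, SE 0.44, limma adjusted p = 0.00131). Egr1 stood at 77.5, 66.8 and 101 FPKM in the libraries labelled DKO, against 672, 214 and 256 FPKM in control (-2.03, limma adjusted p = 0.00759). Every control exceeded every library labelled DKO in both genes, and control replicate 1 was the highest. Jun (-1.64) and Ier2 (-1.27) were also called lower, and 7 of the 16 were called lower without control replicate 1 too. Vegfa, the vascular growth factor, was higher at 6 months (1.64) and at P36 (0.87), and Etv4 (0.71) was the other higher gene at 6 months. Only 1 was called higher without control replicate 2 or 3 or DKO replicate 1.
At P36, 3 of the 16 were called higher and 1 lower, against 18.0% and 5.32% of all genes, with a median of 0.18. Plaur, the urokinase receptor, stood at 4.17, 5.91 and 4.49 FPKM in the libraries labelled DKO, against 0.97, 0.82 and 1.39 FPKM in control (1.51, limma adjusted p = 0.00086). Fos and Egr1 were not called at P36 (0.53 and 0.04), and their genotype effects differed between the ages (-4.07 and -2.08, limma adjusted p = 0.00392 and 0.00895). The lower gene, Egr3 (-0.28), was no longer called without any 1 control or without DKO replicate 2 or 3.

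**Figure D4:**
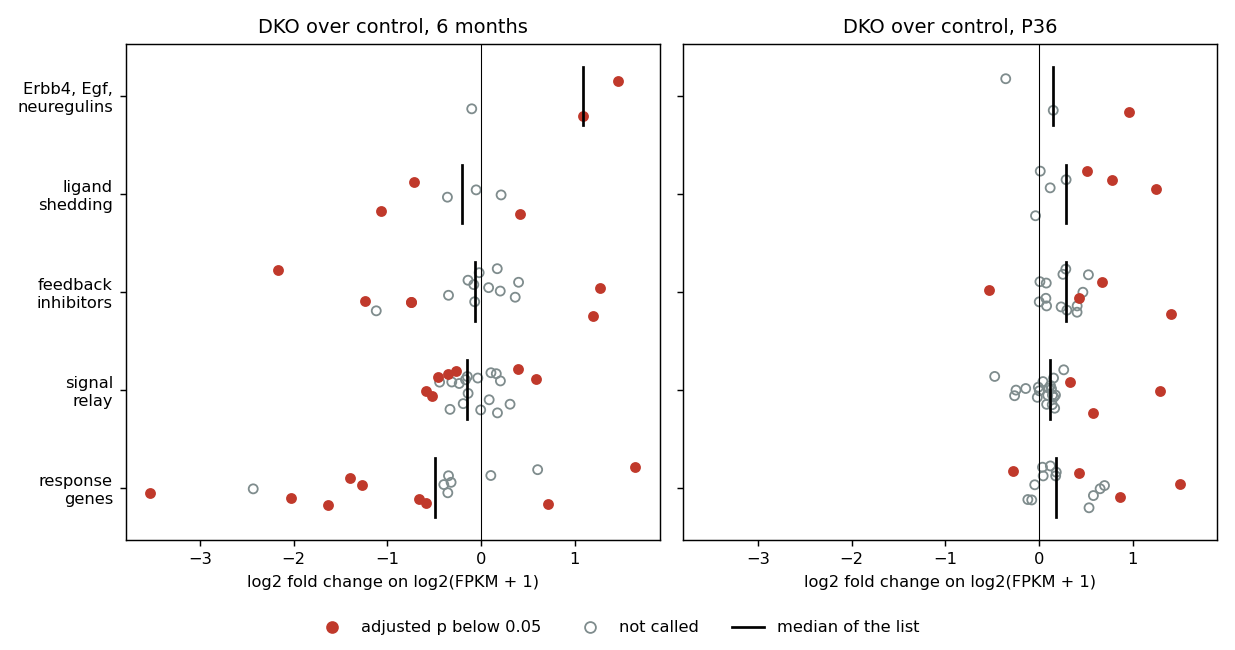
Log2 fold change of DKO over control for every tested gene of 5 pathway lists (horizontal axes, log2(FPKM + 1) scale), at 6 months on the left and P36 on the right; filled points passed an adjusted p of 0.05 and bars mark the list medians. Response genes spread to -3.53 at 6 months, where their median is -0.49, against 0.18 at P36.

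Control 6-month replicate 1 differed from the other 2 controls in part of the members and part of the other lists. Of the 9 members 4, all ligands, were at least 1 log2 unit above both other controls, as were 6 of 16 response genes and 2 of 17 feedback inhibitors, Dusp6 and Errfi1. None of the 6 shedding genes or the 23 relay genes was. Among the other members, Egfr and Erbb2 were also above both other controls, by less, and Btc and Tgfa were below both. Fosl1, an AP-1 subunit, stood at 160 FPKM in that library and at 10.2 and 2.94 FPKM in the other 2 controls. The cause was not tested.

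**Figure D5:**
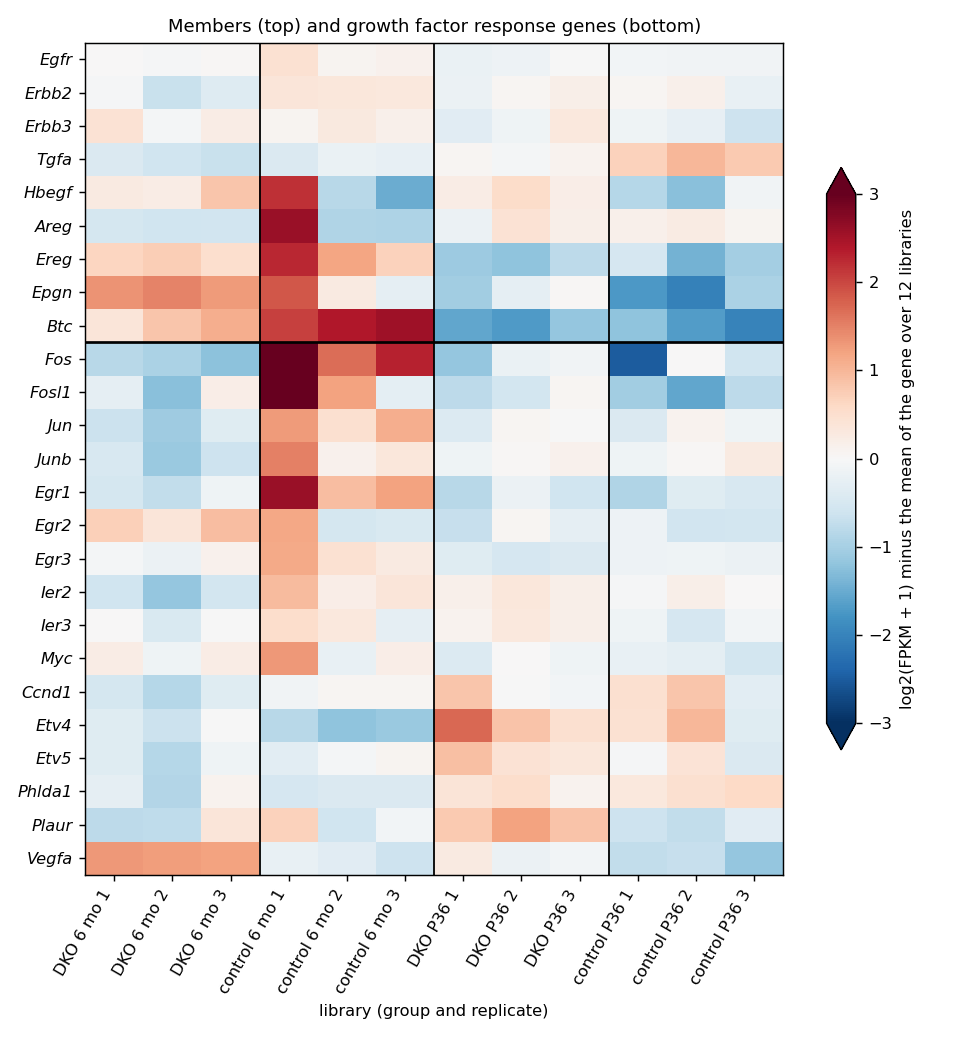
Log2(FPKM + 1) of each member (top) and response gene (bottom) minus the mean of the gene over the 12 libraries (colour, ending at 3 units either way), with libraries as columns. Control 6-month replicate 1 is the darkest column for Areg, Hbegf, Fos, Fosl1 and Egr1, while Btc is high in all 3 controls of that age.

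For each member the 2 genes with the most similar pattern were found by the root mean square difference of log2(FPKM + 1), each gene centred on its own mean, over the 12 libraries. Areg was most like Apold1 (0.30) and Olfr1033 (0.31), and Hbegf most like Zfp972 (0.45) and the cytokine gene Il1b (0.53). Control 6-month replicate 1 was among the 12 libraries, and likeness was not computed without it. By excess in that library Zfp972 was at place 11 and Olfr1033 at place 14. Apold1 averaged 4.48 ± 6.23 FPKM and Il1b 3.74 ± 4.31 FPKM in control at 6 months (SD, n = 3 each). Epgn was most like Nfkbiz (0.44) and Nod2 (0.47), and Ereg most like Calcb (0.28) and Serpinb2 (0.33). Btc was most like Serpinb7 (0.33) and Mrgprb3 (0.37), and Tgfa most like Reep1 (0.11) and Ctif (0.15). For scale, the members' own root mean square deviation about their mean was 1.66 for Btc, 1.24 for Epgn, 1.11 for Ereg, 0.96 for Hbegf, 0.90 for Areg and 0.53 for Tgfa. The receptors varied least, at 0.16 for Egfr, 0.30 for Erbb2 and 0.30 for Erbb3, and their nearest genes were Pip5k1a and Pcnx for Egfr, Sec31a and Cdc42bpg for Erbb2, and Mast4 and Atg13 for Erbb3.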

How the data were processed

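RNA of dorsal mouse epidermis was depleted of ribosomal RNA and sequenced as 50-base single-end reads on a BGISEQ-500, per the labels' protocols. For each age the authors deposited a table of FPKM per gene and library, with their own log2 ratio, p-value and q-value of DKO over control, per the file headers. Which test they used is not given in the sources at hand. HISAT2 2.1.0 and RSEM 1.2.8 were used, per the submitters' processing notes, where the builds named are the human GRCh38 and hg38 although the samples are mouse, so no coordinate comes from the tables. The age of a table comes from its name alone. Gene identifiers were matched to symbols in the RefSeq table of GRCm38.p6: 17712 of 17750 with values at 6 months and 19343 of 19392 at P36 matched.

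In R 4.3.3, limma 3.58.1 with a mean-dependent variance prior was fitted to log2(FPKM + 1) of genes that reached 1 FPKM in 3 or more libraries, and a gene was called at a Benjamini-Hochberg adjusted p below 0.05 over all genes tested. Fold changes on this scale understate those of low genes. Each age was fitted on its 6 libraries (12594 genes at 6 months, 12660 at P36), and the age effects and their difference on all 12. Totals of reads are not held in FPKM, so no counting interval is given. No 2 libraries shared more than 0.412% of their values above 1 FPKM, so none was treated as a duplicate. All fits were tested on simulated data. Alternatives were a pseudocount of 0.1, no filter, a filter at 5 FPKM, 3 rescalings, the replicate number as a block, a joint fit and each library left out.

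Named genes were the 9 members, Vdr and Med1, the genes most like each member, and from each pathway list at each age up to 4 called genes per direction with the smallest adjusted p. Atf3, Nr4a1, Fosb, Errfi1, Dusp6 and Fosl1 in control 6-month replicate 1, Fos and Egr1 at P36, Krt72, Krt14 and the other cell type markers given by name, and Erbb4, Egf and Nrg3 as genes near 0 were named after their values were seen. The members and lists were chosen with earlier results of these data known, so no count over them is independent evidence. One gene that this rule names is not reported here.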

Additional observations from a re-analysis of the deposited data

Results flagged for a closer look

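In 3 members the genotype effect differed between the ages by a test of the difference itself, on the log2(FPKM + 1) scale as 6 months minus P36. For Btc the difference was -1.73, with effects of -1.57 at 6 months and 0.16 at P36. For Erbb2 it was -0.73, with effects of -0.70 at 6 months and 0.03 at P36. For Tgfa it was 0.51, with effects of -0.27 at 6 months and -0.78 at P36. Their tests and the alternatives that end the calls of Erbb2 and Tgfa are given above.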

How the results depend on the processing

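With 3 libraries a group and unknown read depth, the calls rest on the spread between libraries. Of the 9 members, 2 were called at 6 months. That count was 4 with keratin and cornified envelope genes left out of the totals and 2 to 6 with 1 library left out, the highest without control 6-month replicate 1. At P36, 3 members were called, against 1 with median-ratio scaling, 1 in the joint fit and 1 to 3 with 1 library left out (1 without control replicate 1 or 2 or DKO replicate 2 or 3). Genes called at P36 numbered 2949, and 1662 to 2660 with 1 library left out (1662 without DKO replicate 2, 1697 without DKO replicate 3). Other pathway genes called at P36 numbered 15, and 9 to 16 with 1 left out (9 without DKO replicate 2). Of the called genes at 6 months 56.0% were higher, but 39.4% with libraries scaled to 1 total and 34.9% with totals without keratins, where the median of all genes was -0.13 against 0.04. At P36 77.1% were higher, and 58.9% with median-ratio scaling. For the difference between ages the shares were 39.5%, 23.8%, 26.9% and 54.7% for the values as deposited, scaled totals, totals without keratins and median-ratio scaling.

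The signs of some differences that were not called with all libraries turned, and Areg passed with the turned sign without control 6-month replicate 1, both at 6 months and with age in control. At P36 Erbb2 was 0.03, but -0.028 with totals without keratins, -0.10 with median-ratio scaling and -0.078 to 0.13 with 1 library left out. With 1 left out, Egfr was -0.082 to 0.0098, Areg -0.16 to 0.14, Ereg -0.27 to 0.19 and Btc -0.025 to 0.37. At 6 months Erbb3 was 0.02, but -0.14 with scaled totals, -0.18 without keratins, -0.0087 with median-ratio scaling and -0.095 to 0.14 with 1 left out. Areg ran from -1.41 to 0.35 and Hbegf from -0.23 to 1.60. For the difference between ages, Areg ran from -1.39 to 0.37, Hbegf from -1.29 to 0.54 and Epgn from -0.83 to 0.24. For age in control, Areg was 0.08, -0.036 with median-ratio scaling and -1.08 to 0.67 with 1 left out, and Hbegf -0.42 to 1.41. For age in DKO, Hbegf ran from -0.077 to 0.24. The cause was not tested.

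The deviations of libraries with the same replicate number were weakly correlated (r 0.13, -0.06 and -0.12 at P36, -0.06, 0.03 and 0.18 at 6 months). Libraries with different numbers gave -0.21 to 0.21 at P36 and -0.20 to 0.23 at 6 months. Whether the numbers pair libraries is not known, since correlations this weak cannot exclude it. With the replicate block 2607 genes were called at P36 and 4862 of 5207 at 6 months, and the counts of called members were 2 at 6 months and 3 at P36. The replicate block ended the calls of Tgfa in the difference between ages (adjusted p = 0.0623) and of Erbb2 with age in DKO (adjusted p = 0.0685), by limma in each case.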
